A study of Homo sapiens with 14 samples.

Results

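The plasminogen activator and matrix metalloproteinase genes described here are 9 genes chosen by name: PLAU, PLAUR, PLAT, SERPINE2, MMP1, MMP2, MMP14, TIMP2 and TIMP3. They were chosen with earlier results of these data known. All 9 are among the 24461 gene rows of both deposited expression tables. RNA was sequenced from U251MG, an established human glioblastoma cell line with genotype labelled WT, in 12 libraries, and open chromatin was mapped by ATAC-seq in 2 more. The 4 RNA groups of 3 libraries each were control cells, radioresistant cells derived from the line by X-rays (2 Gy a day in 30 fractions, 60 Gy in total), and radioresistant cells with the hairpin shNC or the hairpin shIFI16. No clone number, separate culture or second hairpin against IFI16 is named in the labels. The p-values therefore rest on library-to-library spread alone, possibly a technical one, and shIFI16 differences cannot be told apart from other differences between the hairpin populations. By its title the series is about IFI16 and resistance to radiation, and the 2 comparisons below set radioresistant against control libraries and shIFI16 against shNC libraries.

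Plasminogen activators are serine proteases that cut the circulating zymogen plasminogen into plasmin, which breaks down fibrin and matrix proteins. Urokinase (PLAU) does so at the cell surface, held by its receptor PLAUR, and tissue plasminogen activator (PLAT) does so mainly on fibrin. SERPINE2 (protease nexin-1) is a serpin that traps these enzymes. Matrix metalloproteinases are zinc enzymes secreted or displayed as inactive pro-forms. MMP1 cuts fibrillar collagen, MMP2 cuts gelatin and basement membrane collagen, and MMP14 is anchored in the membrane, where it cuts collagen and, with TIMP2 as a bridge, activates pro-MMP2. TIMP2 and TIMP3 block the active enzymes. In gliomas these proteins are known for their part in invasion of brain tissue.

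Expression was given in TPM (the share of a library's transcripts, corrected for transcript length, so levels can be set side by side between genes). Each library reached 1 TPM for 12361 to 13016 genes, and TPM keeps no depth, so no counting interval can be given. IFI16 averaged 63.7 ± 12.2 TPM in control and 267 ± 36.1 TPM in radioresistant libraries, and 131 ± 7.69 TPM with shNC and 7.43 ± 0.634 TPM with shIFI16 (mean ± SD, n = 3 each), the last in the direction the hairpin's label gives. Of 15 astrocyte and glioma markers 12 reached 1 TPM in at least 3 libraries of the first table and 11 in the second. AQP4, ALDH1L1 and OLIG2 did not reach it in either. The summed level of that list was 15653 to 15894 TPM in control, 6859 to 7454 TPM in radioresistant, 7596 to 8209 TPM in shNC and 5703 to 6678 TPM in shIFI16 libraries. By the test described below, 11 of its 12 tested genes fell in radioresistant cells, S100B through the control libraries alone. Of all genes tested there 27.0% fell. GFAP went from 4011 to 80.6 TPM by mean between control and radioresistant libraries, and PDGFRA from 121 to 12.6 TPM. VIM, the highest of the list in both, went from 8822 to 5640 TPM. With shIFI16 only VIM and NES of 11 tested fell, VIM from 6526 to 4649 TPM by mean, where 16.3% of all genes tested fell. GFAP (1.73 to 31.1 TPM), PDGFRA (1.08 to 6.22 TPM), FABP7 and SOX2 rose, where 16.6% of all genes tested rose. Fibroblast and pericyte markers summed to 30.8 to 36.8 TPM in control and 29.2 to 36.9 TPM in radioresistant libraries, and 4 of the 6 reached 1 TPM there. Immune markers, of which CD3E and AIF1 were at 0 in every library, summed to 15.7 to 21.3 TPM in control and 19.8 to 24.2 TPM in radioresistant libraries. That sum was 37.8 to 40.5 TPM in shNC and 14.2 to 17.9 TPM in shIFI16 libraries, nearly all of it CD68. Endothelial markers summed to 12.4 to 14.2 TPM in control, 4.66 to 5.09 TPM in radioresistant, 6.08 to 6.73 TPM in shNC and 11.7 to 14.3 TPM in shIFI16 libraries. Neuron markers summed to at most 23.5 TPM, epithelial markers to at most 4.55 TPM and oligodendrocyte markers to at most 1.02 TPM in any library. What part these marker levels have in the results below was not tested. In bulk libraries, fewer cells expressing a gene and less RNA per cell cannot be told apart.

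Positions are those of RefSeq's annotation of GRCh38. PLAU spans 73908832 to 73917494 on chromosome 10, PLAUR 43646095 to 43670169 on chromosome 19 and SERPINE2 223975045 to 224039286 on chromosome 2. MMP1 spans 102789919 to 102798160 on chromosome 11, MMP2 55478830 to 55506691 on chromosome 16, MMP14 22836585 to 22847758 on chromosome 14, TIMP2 78852977 to 78925387 on chromosome 17 and TIMP3 32801705 to 32863041 on chromosome 22. The span of PLAU overlaps C10orf55, that of TIMP2 overlaps CEP295NL, that of TIMP3 lies within SYN3 and that of MMP1 lies within WTAPP1. Whether strand was used in counting is not given in the sources used here, so reads of such pairs may not have been separated. C10orf55 averaged 2.89 TPM in control libraries, and the other 3 averaged under 1 TPM in every group.

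RefSeq promoter sequences (GRCh38.p14) were matched for PLAU, PLAUR, SERPINE2, MMP14 and TIMP3, and 4 of them are shown because these genes moved differently in the results that follow. PLAU and MMP14 encode the enzymes that fell together with shIFI16 but moved apart in radioresistant cells, PLAUR encodes the urokinase receptor and TIMP3 is the inhibitor gene that rose in both comparisons. The direction of TIMP3 was fixed in both by the filter on low values described below. Each sequence is the 250 bases before a listed start, 5′ to 3′ on the gene's strand, and capitals mark matches on either strand to the AP-1 motif (TGANTCA), the CRE motif (TGACGTCA), the GC box (GGGCGG), the CCAAT box (CCAAT), the PEA3/ETS motif (AGGAAG) or the interferon response element.
PLAU, chr10:73910882-73911131, plus strand: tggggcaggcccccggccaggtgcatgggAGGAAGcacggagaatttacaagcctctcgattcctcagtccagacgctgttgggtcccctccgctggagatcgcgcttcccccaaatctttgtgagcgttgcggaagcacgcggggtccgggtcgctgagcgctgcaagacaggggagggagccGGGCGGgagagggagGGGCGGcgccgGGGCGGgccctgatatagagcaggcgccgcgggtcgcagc
PLAUR, chr19:43670170-43670419, minus strand: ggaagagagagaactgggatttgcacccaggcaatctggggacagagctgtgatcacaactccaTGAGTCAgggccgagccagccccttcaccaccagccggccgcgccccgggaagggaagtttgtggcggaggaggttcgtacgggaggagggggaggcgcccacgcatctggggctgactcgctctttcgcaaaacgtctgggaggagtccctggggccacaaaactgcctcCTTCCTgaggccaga
MMP14, chr14:22836335-22836584, plus strand: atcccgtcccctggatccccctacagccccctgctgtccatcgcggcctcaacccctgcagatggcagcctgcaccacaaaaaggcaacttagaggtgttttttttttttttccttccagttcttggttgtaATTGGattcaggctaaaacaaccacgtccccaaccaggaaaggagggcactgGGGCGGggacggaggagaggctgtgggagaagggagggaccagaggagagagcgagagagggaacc
TIMP3, chr22:32801455-32801704, plus strand: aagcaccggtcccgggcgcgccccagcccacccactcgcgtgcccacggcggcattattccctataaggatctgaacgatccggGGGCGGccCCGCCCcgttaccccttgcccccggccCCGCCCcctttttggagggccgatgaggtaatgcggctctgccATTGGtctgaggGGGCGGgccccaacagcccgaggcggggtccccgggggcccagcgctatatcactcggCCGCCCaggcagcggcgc
The PLAUR window held the single AP-1 match among the 7 windows of these 5 genes, 186 bases before the start, and 6.57% of 35116 RefSeq promoter windows of that length hold one. The PLAU window shown, of the start at 73911132, held 3 GC boxes, at 66, 51 and 40 bases before the start, and 1 PEA3/ETS match, at 221. The window of its other listed start, at 73910610, held 1 CCAAT box and neither a GC box nor a PEA3/ETS match. The TIMP3 window held 5 GC boxes and 1 CCAAT box, and the MMP14 window held 1 of each. GC boxes occur in 42.6%, CCAAT boxes in 32.0% and PEA3/ETS matches in 28.7% of all windows. SERPINE2 has 2 listed starts, and the window of the start at 224031478 held 7 CCAAT matches and 1 GC box. These CCAAT matches lie in repeated copies of a similar stretch. The window of the start at 224038640 held 2 GC boxes and no CCAAT match. No window of the 5 genes held a CRE or an interferon response element by these letters, which 1.65% and 3.02% of all windows hold. A match of letters is a description and not a shown binding site.

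In radioresistant cells PLAU fell 6.89-fold and MMP2 fell 3.95-fold on the TPM scale, and PLAT, SERPINE2 and TIMP2 fell with them, while MMP14 rose 1.44-fold and TIMP3 rose from a level under 1 TPM. The receptor gene PLAUR did not pass the test and MMP1 was too low to test. The test was run for genes that reached 1 TPM in 3 or more of the 6 libraries, with limma on log2(TPM + 1), and adjusted p-values (Benjamini-Hochberg, over 13127 genes) under 0.05 were called. Of the 8 genes tested 5 fell and 2 rose. Over all genes tested 27.0% fell and 16.9% rose, 43.9% in all, so calls were common in this comparison. The 2 groups did not overlap for 7 of the 8, against 53.1% of all genes tested. TIMP3, counted among these 7, passed the filter through the radioresistant libraries alone. This fixed its direction and kept its groups from overlapping. As the genes were chosen with earlier results of these data known, nothing particular to the set is read from these counts. Among all genes tested the median log2 change was -0.11, and median-ratio scaling moved it to 0.01 and the split of calls from 2220 raised and 3542 lowered to 2976 raised and 2926 lowered. All 7 called genes of the set kept their direction and their call under both other scalings.

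Among the 8 tested genes of the set, the urokinase gene had the largest change on the log2(TPM + 1) scale. PLAU was measured at 700.1, 688 and 669 TPM in control and at 105, 101 and 93.2 TPM in radioresistant libraries. Every control library was far above every radioresistant one. On the log2(TPM + 1) scale PLAU fell by 2.77 (SE 0.0988, limma adjusted p = 1.8e-08), which ranked 53 among 13127 tested genes by size of fall. PLAT, the other activator, at 42174718 to 42207565 on chromosome 8, stood at 78.4, 81.0 and 77.5 TPM in control and at 27.5, 23.4 and 20.4 TPM in radioresistant libraries. The groups did not overlap, and PLAT fell by 1.70 (SE 0.129, adjusted p = 3.9e-06). PLAUR, which holds urokinase at the surface, stood at 94.2, 91.5 and 71.3 TPM in control and at 93.2, 96.4 and 111 TPM in radioresistant libraries. Its groups overlapped, and its log2 change of 0.23 (95% interval -0.07 to 0.52) had an adjusted p = 0.19. With median-ratio scaling PLAUR passed the threshold (0.35, adjusted p = 0.047), and without control replicate 3 its change was 0.10 (adjusted p = 0.44, range 0.047 to 0.46 over the alternatives).

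The serpin SERPINE2, which inhibits urokinase, thrombin and plasmin, stood at 258, 247 and 236 TPM in control and at 151, 171 and 136 TPM in radioresistant libraries. The groups did not overlap, and SERPINE2 fell by 0.70 (SE 0.113, limma adjusted p = 6.7e-04). PLG, the substrate of the activators, was listed at 0 in 5 of these 6 libraries.

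**Figure D1:**
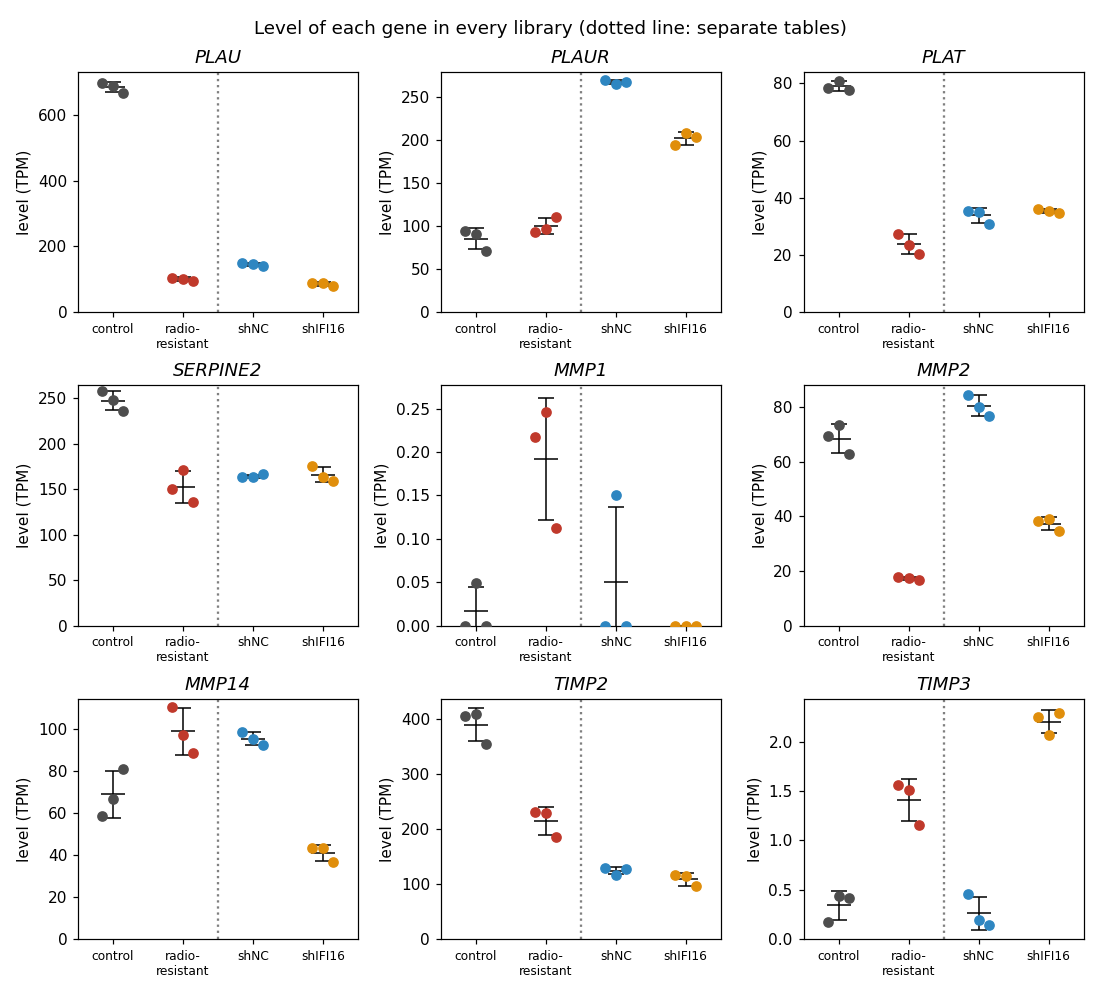
Level in TPM (y axis, linear from 0, scaled separately in each panel) of the 9 genes in the 12 RNA libraries, with points for libraries and bars for mean and SD, n = 3 per group. PLAU drops from about 686 to 99.6 TPM between control and radioresistant libraries, and MMP2 and MMP14 are lower in every shIFI16 library than in every shNC library; the dotted line parts tables that were normalized separately.

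Among the metalloproteinases, MMP2 stood at 69.5, 73.4 and 62.7 TPM in control and at 17.9, 17.3 and 16.8 TPM in radioresistant libraries. The 3 radioresistant libraries lay within about 1 TPM of each other and far below the controls, and MMP2 fell by 1.92 (SE 0.116, limma adjusted p = 7.4e-07). MMP14, the membrane activator of pro-MMP2, went the other way. It stood at 58.9, 66.9 and 81.3 TPM in control and at 111, 97.5 and 88.7 TPM in radioresistant libraries, and rose by 0.52 (SE 0.140, adjusted p = 0.012). The highest control and the lowest radioresistant library came close without overlapping, and without radioresistant replicate 1 the call ended (0.44, adjusted p = 0.056, range 2.2e-04 to 0.056). The collagenase gene MMP1 was listed at 0, 0.0490 and 0 TPM in control and at 0.217, 0.246 and 0.113 TPM in radioresistant libraries, all too low for the test.

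The inhibitor gene TIMP2 stood at 404, 409 and 354 TPM in control and at 230.2, 228 and 185 TPM in radioresistant libraries. The groups did not overlap, and TIMP2 fell by 0.86 (SE 0.120, limma adjusted p = 2.6e-04). TIMP3, whose protein is bound to the matrix, stood at 0.168, 0.434 and 0.420 TPM in control and at 1.56, 1.51 and 1.16 TPM in radioresistant libraries. Its groups could not overlap, given the filter. TIMP3 rose by 0.85 (SE 0.161, limma adjusted p = 0.0018), or by 1.83 with a pseudocount of 0.1 in place of 1. The size of a change at so low a level depends on the pseudocount. TIMP2 remained more than 100-fold above TIMP3 in both groups by mean TPM.

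With shIFI16 against shNC in radioresistant cells, both tested metalloproteinase genes of the set and the urokinase pair were lower. The serpin and the tissue activator did not pass. MMP14 fell 2.32-fold, MMP2 2.16-fold, PLAU 1.71-fold and PLAUR 1.32-fold on the TPM scale, and TIMP3 rose to about 2 TPM from under 1 TPM. PLAT, SERPINE2 and TIMP2 did not pass, and MMP1 was not tested. Of 8 tested genes 4 fell and 1 rose, where 16.3% of the 12567 genes tested fell and 16.6% rose, 32.9% in all. The 2 groups did not overlap for 6 of the 8, against 44.8% of all genes tested. Here too TIMP3, counted among these 6, passed the filter only through the group in which it was high. That fixed its direction and kept its groups from overlapping. Nothing particular to the set is read from these counts either. The median log2 change of all genes tested was 0.02.

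MMP14 stood at 98.9, 95.5 and 92.6 TPM in shNC and at 43.4, 43.3 and 36.8 TPM in shIFI16 libraries. The shIFI16 values were all below 50% of the shNC mean of 95.7 TPM, and MMP14 fell by 1.20 (SE 0.0792, limma adjusted p = 1.8e-08). MMP2 stood at 84.6, 80.3 and 76.9 TPM in shNC and at 38.5, 38.9 and 34.8 TPM in shIFI16 libraries. It fell by 1.09 (SE 0.0766, adjusted p = 3.1e-08), with no overlap. MMP1 was listed at 0, 0.150 and 0 TPM with shNC and at 0 in all shIFI16 libraries.

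PLAU stood at 148, 148 and 141 TPM in shNC and at 88.5, 88.6 and 78.4 TPM in shIFI16 libraries, and fell by 0.77 (SE 0.0683, limma adjusted p = 4.5e-07). The groups were separated by more than 50 TPM. Its receptor gene PLAUR stood at 269.9, 266 and 268 TPM in shNC and at 195, 209 and 204 TPM in shIFI16 libraries. All shIFI16 libraries were lower, and PLAUR fell by 0.40 (SE 0.0578, adjusted p = 6.0e-05). PLAT stood at 35.5, 35.1 and 30.8 TPM in shNC and at 36.1, 35.3 and 34.8 TPM in shIFI16 libraries. The groups overlapped, and the log2 change of PLAT was 0.07 (95% interval -0.11 to 0.25, adjusted p = 0.58). SERPINE2 stood at 163, 163 and 166 TPM in shNC and at 175, 163 and 159 TPM in shIFI16 libraries. Its log2 change was 0.01, with an interval of -0.12 to 0.14 (adjusted p = 0.91), so a change as large as its fall of 0.70 in radioresistant cells lay outside the interval.

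TIMP2 stood at 129, 117 and 127 TPM in shNC and at 115, 115 and 95.3 TPM in shIFI16 libraries. The shIFI16 libraries were all lower, the nearest by under 2 TPM, and the log2 change of -0.20 did not pass (95% interval before adjustment -0.36 to -0.03, limma adjusted p = 0.064). It passed with median-ratio scaling (adjusted p = 0.033), with quantile normalization (0.048) and without shIFI16 replicate 1 (0.023), within a range of 0.023 to 0.25. TIMP3 stood at 0.455, 0.190 and 0.142 TPM in shNC and at 2.26, 2.07 and 2.29 TPM in shIFI16 libraries. It rose by 1.35 (SE 0.150, adjusted p = 4.9e-06), or by 2.76 with a pseudocount of 0.1. TIMP1, a member of the same inhibitor family, fell by 0.73 (SE 0.0699, adjusted p = 1.0e-06), from 704 ± 35.2 to 424 ± 40.1 TPM (n = 3 each).

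**Figure D2:**
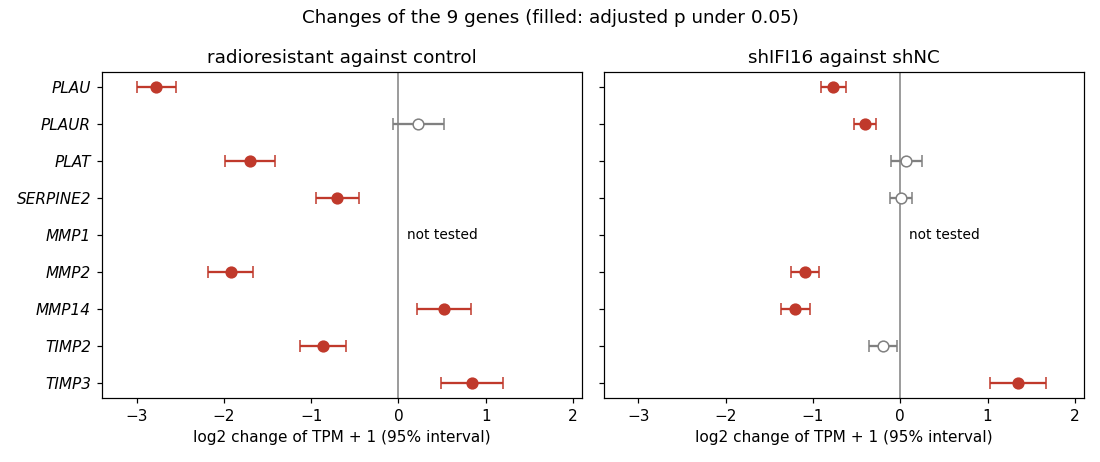
Log2 change of TPM + 1 (x axis) of each gene with its 95% interval before adjustment, radioresistant against control on the left and shIFI16 against shNC on the right; filled points have an adjusted p under 0.05. PLAU and MMP2 lie below 0 in both panels, MMP14 lies at 0.52 on the left and -1.20 on the right, and MMP1 was not tested.

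Set side by side, PLAU and MMP2 fell in both comparisons (-2.77 and -0.77 for PLAU, -1.92 and -1.09 for MMP2). By mean, MMP2 stood at 17.3 TPM in radioresistant and 80.6 TPM in shNC libraries, and PLAU at 99.6 and 146 TPM. The 2 falls of each gene are therefore not read as successive. MMP14 rose in radioresistant cells and fell with shIFI16 (0.52 and -1.20). TIMP3 rose in both, from under 1 TPM each time, but the filter on low values fixed its direction in each, so the 2 rises are not read as agreement. The difference between the comparisons was not tested, since the tables were normalized separately.

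The order of levels within a group changed with these differences. In control libraries PLAU ranked first at 686 TPM and made up 42.2% of the summed level of the 9 genes, followed by TIMP2 and SERPINE2 with no overlap between neighbours. PLAUR, PLAT, MMP14 and MMP2 followed between 68.5 and 85.6 TPM, and each overlapped its neighbour in the order. In radioresistant libraries TIMP2 ranked first at 214 TPM and SERPINE2 second at 152 TPM. PLAUR, PLAU and MMP14 then stood at 100.1, 99.6 and 99.0 TPM with overlapping ranges, so PLAU made up 14.1% of the sum. The sum itself averaged 1624 TPM in control and 708 TPM in radioresistant libraries. PLAUR ranked first in shNC (268 TPM) and in shIFI16 libraries (202 TPM), followed by SERPINE2 in both. With shIFI16, MMP14, MMP2 and PLAT stood at 41.2, 37.4 and 35.4 TPM, each overlapping the next. TIMP3 and MMP1 held the last places in all 4 groups.

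Ratios within a library, which do not depend on the scaling of that library, describe the balance of enzyme, receptor and inhibitor transcripts. The ratio of PLAU to PLAUR was 7.43, 7.53 and 9.39 in control libraries and 1.13, 1.04 and 0.843 in radioresistant ones. It was 0.550, 0.555 and 0.525 with shNC and 0.455, 0.424 and 0.385 with shIFI16. The urokinase transcript thus exceeded that of its receptor in every control library and in no hairpin library. The ratio of PLAU to SERPINE2 was 2.72 to 2.83 in control, 0.589 to 0.697 in radioresistant, 0.849 to 0.908 in shNC and 0.494 to 0.544 in shIFI16 libraries. MMP2 stood near MMP14 in control libraries (ratio 0.772 to 1.18) and well below it in radioresistant ones (0.162 to 0.189). With shNC that ratio was 0.831 to 0.856 and with shIFI16 0.886 to 0.946, as both genes fell by similar amounts. The ratio of TIMP2 to MMP14 was 4.35 to 6.87 in control and 2.08 to 2.34 in radioresistant libraries, and 1.22 to 1.37 with shNC and 2.59 to 2.66 with shIFI16. These ratios are descriptions of chosen genes and carry no test.

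**Figure D3:**
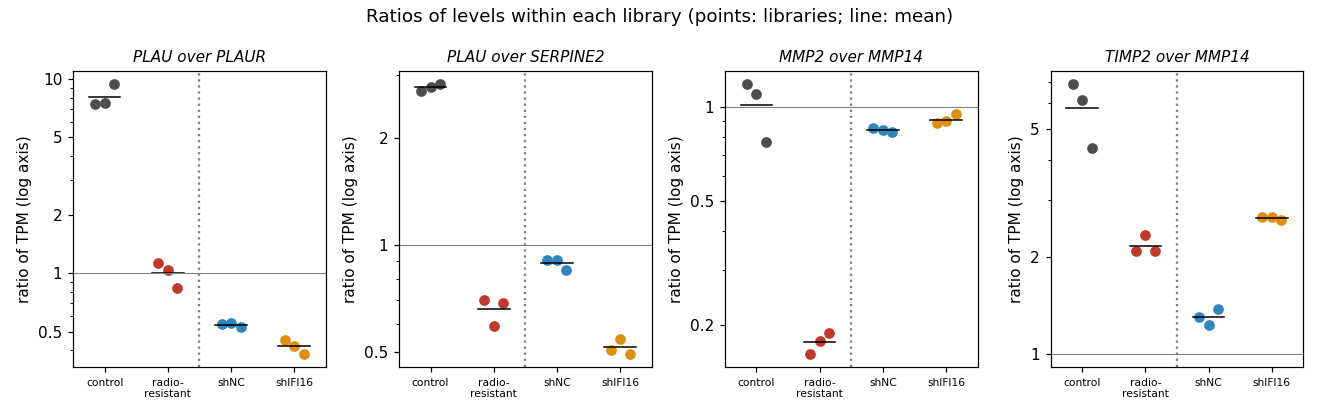
Ratio of the TPM values of 2 genes within each library (y axis, logarithmic), with points for libraries and a line for the mean of each group of 3; the horizontal line marks equal levels. The ratio of PLAU to PLAUR is above 7 in control libraries and under 1.2 elsewhere. The ratio of MMP2 to MMP14 is under 0.2 only in the radioresistant libraries without a hairpin.

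The other genes of these pathways were counted from 7 lists, and each count stands against the 16.9% of all tested genes that rose and the 27.0% that fell in radioresistant cells. Nothing particular to a list is read from its count. For a gene that passed the filter through 1 group alone, the filter fixed its direction and kept its groups from overlapping. In radioresistant cells 1 of 14 tested further plasminogen system genes rose and 6 fell (median log2 change -0.27, against -0.11 for all genes tested), SERPINA5 among them through the control libraries alone. PLGRKT, a cell surface plasminogen receptor, fell by 0.83 (SE 0.135, limma adjusted p = 6.8e-04) from 101 ± 9.12 to 56.6 ± 8.41 TPM (n = 3 each). The serpin gene SERPINB6 fell by 0.63 (adjusted p = 0.0016), and its relative SERPINB8 rose by 0.68 (adjusted p = 0.011). Of 20 further metalloproteinase genes 14 were too low to test, among them MMP9, the other gelatinase, listed at 0 in all 6 libraries. Of the 6 tested 3 rose and 1 fell. MMP28 (epilysin) stood at 0.990, 0.888 and 1.07 TPM in control and at 34.1, 28.8 and 16.8 TPM in radioresistant libraries, and rose by 3.74 (SE 0.224, adjusted p = 6.9e-07). MMP3 (stromelysin-1) rose to 1.57 ± 0.366 TPM and passed the filter only through the radioresistant libraries. MMP15, also a membrane-type enzyme, was the third that rose, a call that ended without radioresistant replicate 1 (adjusted p = 0.055). MMP16, a membrane-type enzyme like MMP14, fell by 0.98 (adjusted p = 5.9e-04) from 14.8 ± 2.46 to 6.97 ± 0.696 TPM. Of 5 tested further inhibitors TIMP4 rose, and SPOCK1 and SPOCK3, which encode testicans, fell, SPOCK3 through the control libraries alone. TIMP4 rose by 0.47 (adjusted p = 0.030), a call that ended without each library in turn other than control replicate 1, with adjusted p from 0.051 to 0.10. TIMP1 had a log2 change of -0.30 (adjusted p = 0.063), which was -0.38 without control replicate 3 (adjusted p = 0.0076, range 0.0076 to 0.23).

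Among 14 tested adamalysin and activation genes 2 rose and 4 fell in radioresistant cells. ADAMTS1, a secreted proteoglycan-cleaving enzyme, rose by 1.85 (SE 0.156, limma adjusted p = 8.7e-06), from 6.75 ± 0.270 to 27.2 ± 5.69 TPM (n = 3 each), and ADAM15 rose by 0.97. The membrane disintegrin genes ADAM9 and ADAM19 fell by 0.99 and 0.83, ADAM9 from 401 ± 68.0 to 200.4 ± 16.9 TPM. Of 11 tested partners of the urokinase receptor 3 rose and 3 fell, and of the rises those of FPR1 and PDGFRB came through the radioresistant libraries alone. ITGA5, the fibronectin receptor chain, rose by 1.72 (SE 0.103, adjusted p = 7.0e-07), from 32.4 ± 0.878 to 109 ± 3.10 TPM. The vitronectin receptor chains ITGAV and ITGB5 fell by 1.18 and 0.60, and FPR1, which rose by 0.92, was under 1 TPM in all control libraries. Of 22 transcription factors of protease genes 7 rose and 1 fell (median 0.25). FOSL1, an AP-1 subunit, stood at 33.4, 43.8 and 59.3 TPM in control and at 157, 175 and 208 TPM in radioresistant libraries, and rose by 1.99 (adjusted p = 2.0e-05). ETS2 rose by 1.07, ZEB2 fell by 0.72, and the other genes that rose were FOS, FOSL2, JUNB, ATF3 and ETS1. Of 20 tested growth factor and receptor genes 6 rose and 3 fell, IL1B among the rises through the radioresistant libraries alone, with IL1R1 up by 1.71, HBEGF up by 1.34 and TGFA, a ligand of the EGF receptor, down by 1.68 (adjusted p = 9.0e-06). TGFBR1 fell by 0.54 (adjusted p = 0.014), a call lost without control replicate 1 (0.057), control replicate 2 (0.053), radioresistant replicate 1 (0.058) or radioresistant replicate 3 (0.051).

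With shIFI16 the counts stand against 16.3% of all tested genes that fell and 16.6% that rose, and the medians against 0.02. Of 10 tested urokinase receptor partners 7 fell and 0 rose (median -0.52), FPR1 among them through the shNC libraries alone. ITGB5 fell by 0.96 (SE 0.0905, limma adjusted p = 8.4e-07) from 68.2 ± 1.92 to 34.7 ± 4.50 TPM, and ITGA5 by 0.75 (adjusted p = 1.5e-06) from 148 ± 10.8 to 87.7 ± 6.43 TPM (n = 3 each). Of 12 plasminogen system genes 6 fell and 1 rose (median -0.23). MRC2, a collagen uptake receptor that associates with PLAUR, fell by 0.47 (adjusted p = 4.1e-04), and SERPINI1, a serpin that inhibits PLAT, fell by 0.35. Of 6 tested further metalloproteinases 2 fell, MMP28 by 0.58 (adjusted p = 0.0059) and MMP17 by 0.30 (adjusted p = 0.037). MMP28 averaged 3.25 TPM in shNC and 1.85 TPM in shIFI16 libraries. The call of MMP17 was lost without each library in turn other than shIFI16 replicate 1, with adjusted p from 0.057 to 0.15. Of 5 further inhibitors TIMP1, TIMP4 and SPOCK3 fell (median -0.41); TIMP4 missed the threshold without shNC replicate 2 (adjusted p = 0.052), and SPOCK3 passed the filter only through the shNC libraries. Of 14 adamalysin and activation genes 4 fell and 1 rose. FURIN, a convertase that activates pro-MMP14, fell by 0.48 (adjusted p = 7.0e-04), BSG, an inducer of metalloproteinases, fell by 0.29, and ADAM9 rose by 0.27.

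Of 20 tested transcription factors of protease genes 6 fell and 2 rose with shIFI16. SNAI2 fell by 1.48 (SE 0.118, limma adjusted p = 1.3e-07) from 11.1 ± 1.14 to 3.34 ± 0.305 TPM (n = 3 each). FOSL1 stood at 287, 283 and 282 TPM in shNC and at 166, 167 and 181 TPM in shIFI16 libraries, and fell by 0.73 (adjusted p = 1.6e-07). JUN, JUNB, ATF3 and ETV5 also fell. Of 19 tested growth factor and receptor genes 6 fell and 2 rose. TGFBR2 fell by 1.24 (adjusted p = 2.5e-08) from 74.1 ± 4.25 to 30.9 ± 2.93 TPM, and IL6 by 1.44 (adjusted p = 2.4e-07). FGFR1 rose by 0.45. The small rises of ENO1 (0.18), ETS1 (0.28), SP1 (0.26) and TGFB3 (0.33) were not past the threshold without shNC replicate 3 (adjusted p = 0.14, 0.15, 0.19 and 0.11), without shIFI16 replicate 2 (0.12, 0.064, 0.096 and 0.18) or without shIFI16 replicate 1 (0.094, 0.086, 0.12 and 0.059). Without shNC replicate 1 the calls of SP1 and TGFB3 ended (0.091 and 0.075), and without shNC replicate 2 that of TGFB3 (0.10). With median-ratio scaling the call of ENO1 ended (0.18), and without the filter on low values those of ETS1 (0.083), SP1 (0.091), TGFB3 (0.055) and, among the metalloproteinases, MMP17 (0.054).

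**Figure D4:**
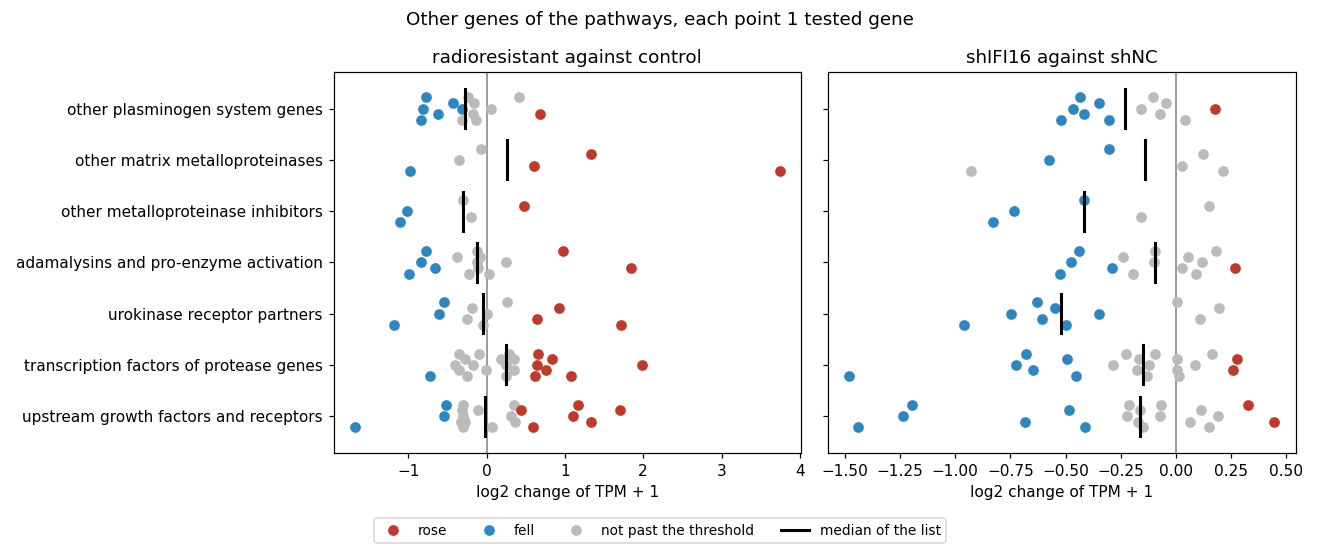
Log2 change of TPM + 1 (x axis, a different range in each panel) of the tested genes of 7 pathway lists, 1 point per gene, red for genes that rose, blue for genes that fell and grey for genes not past an adjusted p of 0.05; black bars are list medians. On the left MMP28 stands out at 3.74 and TGFA at -1.68, and on the right the median of the urokinase receptor partners is -0.52.

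Genes whose pattern over the 12 RNA libraries was most like that of a given gene were ranked by the root mean square difference in log2(TPM + 1), centred within each table, among 10026 candidates. Nearest to PLAU were DOCK4 (0.135), PMEPA1 (0.138) and DIRAS3 (0.171), where the median gene differed by 1.00. DOCK4 averaged 38.8, 6.02, 10.9 and 6.29 TPM in control, radioresistant, shNC and shIFI16 libraries. Nearest to MMP2 were ST8SIA4 (0.159), DMTN (0.211) and CPA6 (0.214), against a median of 0.774. Nearest to SERPINE2 were PAPSS1 (0.0472), RAB28 (0.0561) and HSD17B4 (0.0599), against a median of 0.277. These distances mostly reflect the differences between groups and carry no test.

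Open chromatin near the genes was read from 1 list of ATAC-seq summits per condition, 2454 in control and 12877 in radioresistant cells, so the lists differ in length and have no replicate. Within 10000 bases of a gene span the control list held a summit at 1 of the 9 genes and the radioresistant list at 5 of the 9. Over 21794 annotated genes those shares were 9.83% and 42.1%, and long genes have more room for a summit. Scores are the authors' -log10 q-values within a list. TIMP2 was the gene with a summit in both lists, at 78862533 on chromosome 17 in control (score 3.59) and at 78862224 in radioresistant cells (score 9.58), both inside its span. The radioresistant list held further TIMP2 summits at 78884029 inside and 78934354 outside the span. Beside PLAU it held a summit at 73907182 on chromosome 10 (score 5.38), 1650 bases outside the span and 3428 bases before the nearest listed start. Near MMP2 it held summits at 55470713 (score 3.85) and, inside the span, at 55503268 (score 2.18) on chromosome 16. Near MMP14 one lay at 22853587 on chromosome 14 (score 4.53) and near MMP1 one lay at 102780606 on chromosome 11 (score 4.78). PLAUR, PLAT, SERPINE2 and TIMP3 had none within that distance in either list. Within 50000 bases the radioresistant list held a summit at 7 of the 9 genes, against 64.3% of all genes, and the control list at 1, against 19.0%. No summit lay within 1000 bases of a listed start of the 5 genes that have one. PLAU and MMP2, which fell in radioresistant cells, and MMP14, which rose, each had summits in the radioresistant list only, and with lists of such unequal length this says nothing about a change.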

How the data were processed

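RNA-seq was done on 12 libraries and ATAC-seq on 2, all of U251MG cells, with groups and replicate numbers from the labels. Columns of the expression tables carry codes: UN and UR were read as control and radioresistant after the names of the ATAC-seq pair, URN as shNC and URS as shIFI16. IFI16 levels went with the hairpin reading, and the control and radioresistant codes have no such check. The deposited tables are named as counts but hold TPM, since each column sums to 1000000 and values are not whole, so a limma fit on log2(TPM + 1) was used. Per the submitters' processing notes, the tools included TopHat, Trim Galore 0.6.6, featureCounts and Cufflinks 2.2.1 with hg38, and for ATAC-seq also Bowtie2 2.2.5, SAMtools 1.10 and MACS2 2.1.4. Which tool made the TPM, which annotation it used and whether it used strand is not given in the sources used here. The authors deposited MACS2 summits for each ATAC-seq library, scored by -log10 q-value by the layout of the file, none under 1.30.

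Each table was fitted alone with limma 3.58.1 in R 4.3.3 (variance trend, robust moderation), without the 28 rows whose names had become dates (0.115 to 0.190% of a library). The pseudocount of 1 makes the printed log2 changes of low genes too small. Simulated data at the size of the radioresistant comparison recovered 74% of rises of 1 and 26% of rises of 0.5 (log2), and of the shIFI16 comparison 88% and 64%. There only 50 genes had each size of change, all above 5 TPM, whereas 43.9% and 32.9% of genes were called in the data. With so few changed genes the adjustment is stricter, so these shares may be too low for the data. They do not cover lower genes such as TIMP3. With 3 libraries against 3 an exact permutation test cannot go below 0.1 and was not used. Same-numbered libraries were not paired. The genes and lists were chosen with earlier results of these data known. The text names the 9 genes, IFI16, TIMP1, MMP9 and PLG, up to 2 genes per list and direction by smallest adjusted p without overlap between groups, and the 3 nearest patterns to PLAU, MMP2 and SERPINE2. A further gene of the rule is not reported here. Other genes are named only to complete a count or a marker list, chosen after their values were seen. Alternatives were pseudocounts of 0.1 and 0.5, no filter and a filter at 5 TPM, median-ratio and quantile scaling, plain moderation, a replicate block, and each library left out with the tested genes kept. For ATAC-seq they were distances of 50000 and 1000 bases and a score of at least 10.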

Additional observations from a re-analysis of the deposited data

How the results depend on the processing

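Gene and setting pairs of the 8 tested genes of the set were counted by whether they kept their side of the threshold. This held for 109 of 111 in the radioresistant comparison and 107 of 111 with shIFI16, and no called change turned. Pairs that crossed the threshold are named beside MMP14, PLAUR and TIMP2 in the results, apart from the block below. The uncalled change of SERPINE2 with shIFI16 took both signs over the settings, from -0.03 to 0.04. Leaving out 1 library gave 4120 to 7398 called genes in the radioresistant comparison (5762 with all) and 3017 to 4197 with shIFI16 (4140 with all). Of the 9 genes, 6 to 7 were then called in the first and 5 to 6 in the second. Without a filter MMP1 passed in radioresistant cells (log2 change 0.23, limma adjusted p = 0.020) at levels under 0.25 TPM. Same-numbered libraries deviated together in no steady way (r of -0.38, 0.24 and 0.08 in the first table, 0.22, 0.09 and 0.03 in the second). With the replicate number as a block 5572 genes were called in the first comparison and 5610 in the second, against 5762 and 4140 without it. Of the 9 genes 7 and 6 were called with it, and 7 and 5 without it. Pathway list members called numbered 44 and 48 with it, and 43 and 40 without it, and nothing particular to the lists is read from this. With the block TIMP2 passed with shIFI16 (-0.20, adjusted p = 0.031). With a score of at least 10, 0 ATAC-seq summits were counted near the genes in either library. With the strict distance of 1000 bases from a listed start 0 were counted too, for the 5 genes that have one. PLAT, MMP1, MMP2 and TIMP2 have no listed start, so their count at that distance was fixed at 0 in advance. Within 50000 bases 14 were counted in the radioresistant library (8 within 10000). TPM keeps no depth, so whether low genes such as MMP1 and TIMP3 rest on few reads cannot be told.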

Other observations

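Untransduced radioresistant cells and shNC cells are both radioresistant, but come from separate tables that were normalized separately, so their levels are only set side by side. MMP2 averaged 17.3 ± 0.588 TPM in radioresistant and 80.6 ± 3.86 TPM in shNC libraries (n = 3 each). PLAUR averaged 100.1 and 268 TPM, TIMP2 214 and 124 TPM, PLAU 99.6 and 146 TPM, and TIMP3 1.41 and 0.263 TPM. MMP14 (99.0 and 95.7 TPM) and SERPINE2 (152 and 164 TPM) lay close together. Outside the set, MMP28 averaged 26.6 TPM in radioresistant and 3.25 TPM in shNC libraries, and MMP3 averaged 1.57 and 0.0348 TPM. Of 12359 genes at 1 TPM or more in at least 3 libraries of each table, 1364 differed at least 2-fold in mean TPM + 1 between these groups. MMP2 and PLAUR were among them, and so was IFI16, at 267 TPM in radioresistant and 131 TPM in shNC libraries by mean. What sets the 2 groups apart was not tested.

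Among low metalloproteinase genes, MMP7 (matrilysin) was listed at 0.0921, 0 and 0 TPM in control and at 0.967, 1.03 and 0.574 TPM in radioresistant libraries, too low to test. It averaged 2.57 ± 1.21 TPM in shNC and 0.894 ± 0.799 TPM in shIFI16 libraries (n = 3 each), where the groups overlapped (log2 change -0.93, limma adjusted p = 0.14).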
